A study of Homo sapiens with 4 samples.

Results

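Gene expression was compared between confluent BJ-TE cells in which p73 was targeted by a short hairpin RNA (shRNA) and confluent BJ-TE cells with a control hairpin labelled ns. The pair was chosen by sample title and comprised 2 of the 4 samples of the series, 1 array in each group. The BJ-TE line comes from BJ cells, fibroblasts of human foreskin. The other 2 arrays carry the same hairpins in cells at 40% confluence and share no array with the confluent pair, and the series is titled as work on p73 and malignant transformation. Both arms therefore have the same line, and differ in the hairpin (a single p73 hairpin, with no second one to compare) and not in confluence. Whether the cultures were grown independently is not stated in the labels. With 1 array a group there is no replicate, so every ratio is a description of these arrays, with no test and no error between cultures. The table held 22277 probe sets, of which 62 were controls and 22215 were used.

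p73 is a DNA-binding transcription factor of the p53 family, and its members bind the same kind of response element in target genes that control growth arrest and death. A short hairpin is cut by the cell into a small RNA that guides Argonaute to a matching messenger RNA. Fibroblasts make the collagenous matrix of connective tissue, and they also carry the interferon system. In that system a secreted interferon binds its receptor, the kinases JAK1 and TYK2 activate STAT factors, and these join IRF9 on a DNA motif, the interferon-stimulated response element, in front of antiviral genes.

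Values are linear array intensities, which the authors had scaled so that each array has the same trimmed mean (500.1 to 500.2). The median intensity was 121 on the ns shRNA array and 118 on the p73 shRNA array of confluent cells, and 106 and 104 at 40%. The 3' to 5' ratio of the GAPDH control, a measure of RNA integrity, was 1.02 on both confluent arrays, and that of beta-actin 1.47 with ns and 1.38 with p73 shRNA. The median of the controls for ribosomal RNA was 348 and 283 on these arrays, and 699 and 279 at 40%. Ratios are given as log2(intensity + 11.5) with p73 shRNA minus the same with ns shRNA, so a positive value means more signal with p73 shRNA. The added 11.5 pulls the ratios of dim genes towards 0. Each gene is represented by its brightest probe set, and 6759 of 11963 genes had a mean intensity of at least about 111 and were kept.

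TP73 itself was at the floor of the arrays. Its intensity was 1.65 on the ns shRNA array and 2.04 on the p73 shRNA array of confluent cells, and 1.68 and 2.09 at 40%. These values lie at percentiles 2.17 to 3.84 of their arrays, so the hairpin's effect on its target cannot be read from these arrays. MDM2, a ubiquitin ligase and a classic target of the p53 family, had 5 probe sets, all below the filter.

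Confluent cells with either hairpin gave close profiles. The 6759 ratios had a median of -0.001 and an SD across genes of 0.28, with 95.8% of genes within 1.5-fold. At least 2-fold higher with p73 shRNA were 21 genes (0.311% of genes above the filter), and at least 2-fold lower were 24 (0.355%). At 1.5-fold, a log2 ratio of 0.585, 128 genes (1.89%) were higher and 155 (2.29%) lower. At 40% confluence the corresponding 2-fold counts were 43 (0.636%) higher and 78 (1.15%) lower, and the SD across genes was 0.386.

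**Figure D1:**
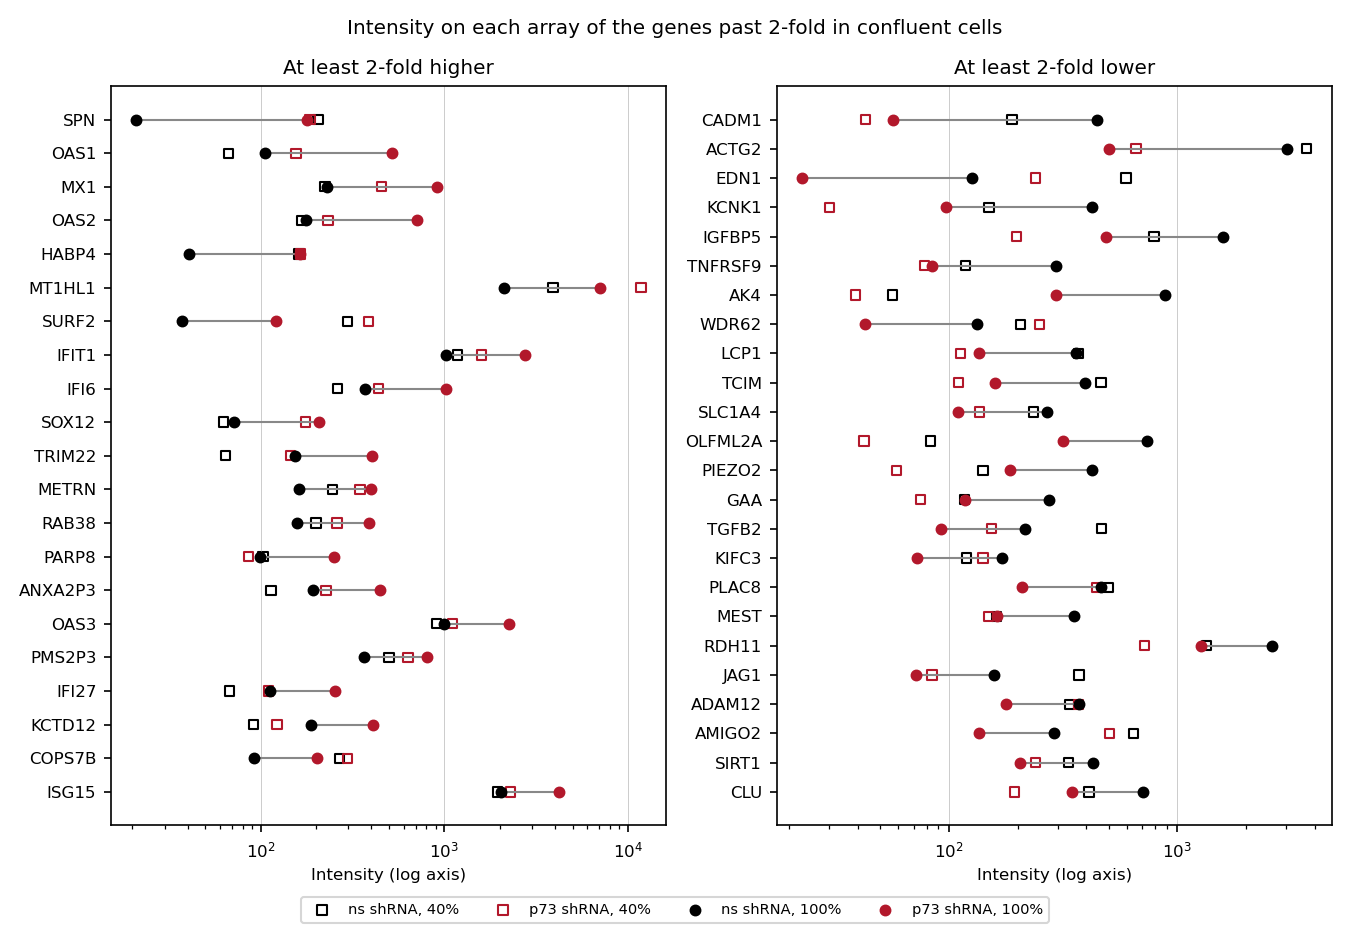
Intensity (log axis) of the 21 genes at least 2-fold higher (left) and the 24 at least 2-fold lower (right) with p73 shRNA in confluent cells, ordered by ratio. Black marks ns shRNA, red p73 shRNA, filled circles 100% and open squares 40% confluence, and grey lines join the confluent pair. Antiviral genes such as OAS1 (105 and 518) lie on the left, and the widest spans on the right are CADM1 (447 and 57.1) and ACTG2 (3033 and 503).

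The spread of the ratios differed with brightness. When genes were split by brightness into 5 groups of equal size, the dimmest group had mean intensities of 111 to 249. Its ratios had an SD of 0.39, and 137 genes (10.1%) were past 1.5-fold in either direction. In the brightest group, from 1783 to 23955, the SD was 0.187 and 16 genes (1.18%) were past it. Of the 21 higher genes, 12 lay in the dimmest group, as did 16 of the 24 lower ones. Several probe sets of one gene on the same arrays offer the nearest thing to a repeated measurement. For 2231 genes with 2 or more of them above the filter, the SD between a gene's ratios was 0.221, which covers probe error and no error between cultures. Of the 7 genes past 2-fold with several such probe sets, 6 had the same sign in all of them.

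**Figure D2:**
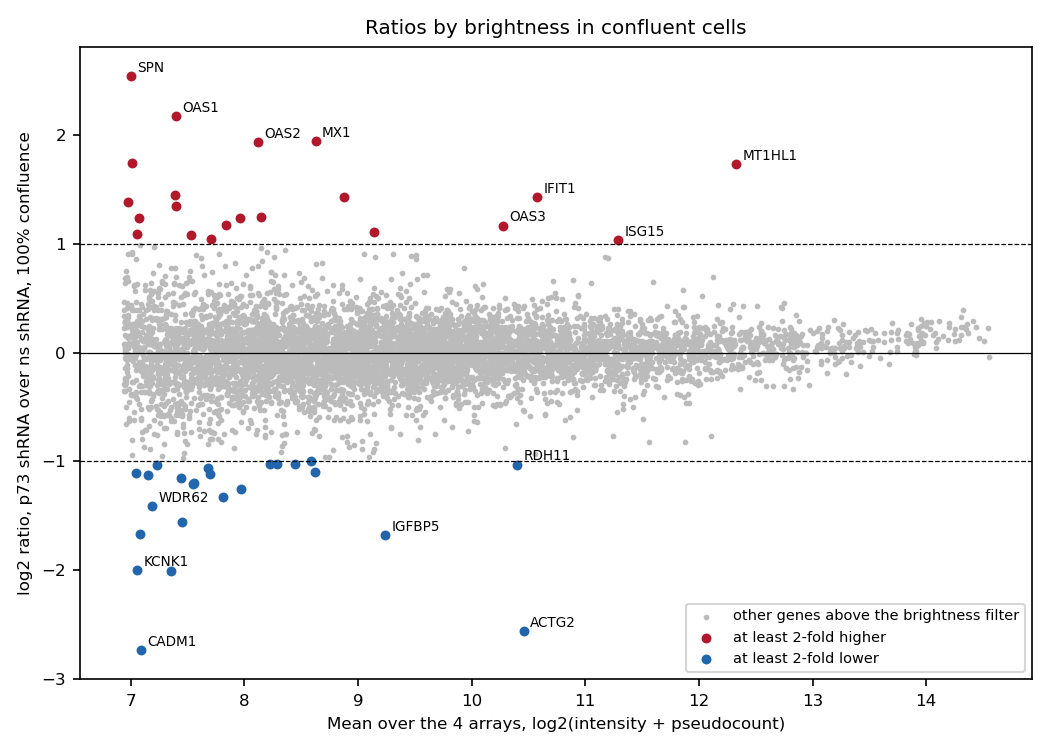
Log2 ratio of p73 over ns shRNA in confluent cells (vertical axis) against the mean log2(intensity + 11.5) of each of the 6759 genes (horizontal axis), with the genes past 2-fold marked. The spread narrows from left to right, from an SD of 0.39 in the dimmest group of genes to 0.187 in the brightest.

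The higher genes were led by antiviral effectors. Of the 39 antiviral genes above the filter, from a list of 50 of which 45 are on the array, 37 had more signal with p73 shRNA and 2 less (GBP2 and BTN3A3). At 2-fold 8 were higher (20.5%, against 0.311% of all genes) and 0 lower. At 1.5-fold 20 were higher (51.3%, against 1.89%) and 0 lower. The median ratio of the list was 0.62, with -0.001 over all genes. Quantile scaling or a curve through the confluent pair left 37 higher and 2 lower.

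**Figure D3:**
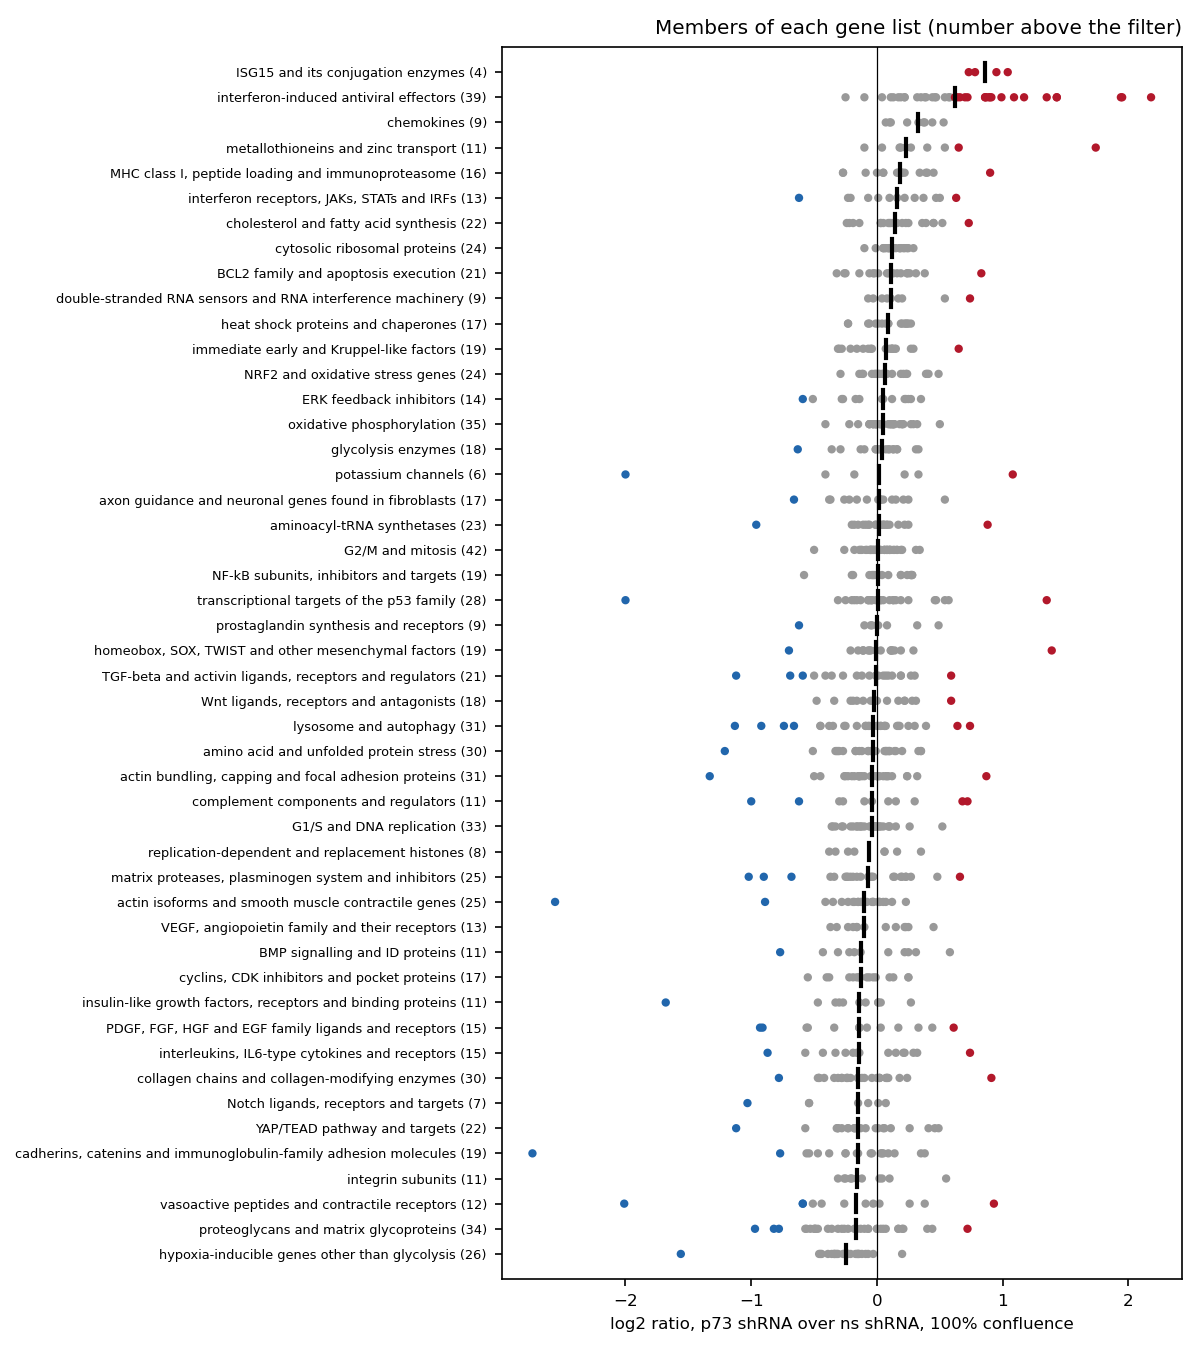
Log2 ratio in confluent cells of every gene above the filter in the gene lists (one row of points per list, medians as black bars, genes past 1.5-fold in red or blue). The antiviral list has its median at 0.62 and all but 2 of its genes to the right of 0, and the hypoxia list has 1 gene to the right of 0.

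Among the antiviral effectors, the oligoadenylate synthetases turn double-stranded RNA into a signal for RNase L. OAS1 had an intensity of 105 with ns shRNA and 518 with p73 shRNA in confluent cells, and of 66.8 and 156 at 40%. The p73 shRNA array of confluent cells is the highest of the 4, and the log2 ratio was 2.18 in confluent cells and 1.10 at 40%. A second OAS1 probe set, below the filter over the 4 arrays, read 73.1 and 406. OAS2 read 176 and 710 in confluent cells against 168 and 233 at 40%, a ratio of 1.94 and of 0.45. For OAS3 the values were 1001 and 2262 in confluent cells, and 907 and 1109 at 40%, a ratio of 1.17 and of 0.29. All 3 genes lie next to each other on chromosome 12 and were each at least 2-fold higher.

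MX1, a GTPase that traps viral nucleocapsids, read 229 with ns and 914 with p73 shRNA in confluent cells. At 40% it read 224 and 456, and the ratios were 1.95 and 0.99. Its neighbour MX2 on chromosome 21 just missed 2-fold, at 110 and 230 (0.99), and had its larger ratio at 40% (54.4 and 163, 1.40). IFIT1, which binds viral RNA, stood at 1017 and 2750 in confluent cells and at 1182 and 1594 at 40%, with ratios of 1.43 and 0.43. Both control arrays of MX1 and of IFIT1 were close to each other, and the p73 shRNA array of confluent cells was the highest.

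IFI6, an interferon-inducible membrane protein, had an intensity of 371 with ns and 1019 with p73 shRNA in confluent cells, and of 262 and 439 at 40% (ratios of 1.43 and 0.72). TRIM22, a ubiquitin ligase, read 153 and 406, and 64.2 and 145 at 40% (1.35 and 1.05). IFI27 stood at 113 and 254, and 67.6 and 110 at 40% (1.09 and 0.61). Antiviral genes just below 2-fold were SP110 at 0.91, IFI35 at 0.90, IFI44 at 0.89, IFITM1 at 0.87, IFIT3 at 0.86, and BST2, which tethers budding virus, at 0.86. Outside the list RCE1 (0.97), STK11 (0.96), LPAR3 (0.93) and FKBP10 (0.91) also lay there. Members with little difference were the double-stranded RNA kinase EIF2AK2 (1282 and 1381, 0.11) and GBP1 (2150 and 2457, 0.19).

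The promoters of these genes are shown because the interferon-stimulated response element is a sequence. RefSeq promoters were searched on both strands for GAAANNGAAA, from 250 bases before to 50 after each start, on the GRCh38.p14 build. Of the genes at least 2-fold higher, 13 have a promoter in that table and 6 of them (46.2%) hold the motif. All 6 are in the antiviral or ISG15 lists. Of the 31 antiviral genes above the filter with a promoter, 20 (64.5%) hold the motif, among them EIF2AK2 (0.11), GBP1 (0.19) and BTN3A3 (-0.25). The share among higher genes was thus not separated from membership of the antiviral class. Of all 5716 genes above the filter with a promoter, 229 (4.01%) hold it, and 1195 of all 27305 genes with a RefSeq promoter do (4.38%). Of the 20 lower genes with a promoter 1 holds it (5%), EDN1. Stretches of 60 bases around it, all upstream of the start and read on the gene's own strand, follow with the motif or its reverse complement in capitals.
IFI6, chr1:27672314-27672373, minus strand: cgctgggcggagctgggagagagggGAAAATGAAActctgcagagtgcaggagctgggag
IFI27, chr14:94110603-94110662, plus strand: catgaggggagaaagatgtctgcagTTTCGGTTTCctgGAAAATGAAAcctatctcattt
IFIT1, chr10:89392482-89392541, plus strand: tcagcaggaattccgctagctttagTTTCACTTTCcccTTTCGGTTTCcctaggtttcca
MX1, chr21:41431829-41431888, plus strand: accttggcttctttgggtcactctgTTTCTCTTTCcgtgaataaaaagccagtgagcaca
OAS3, chr12:112938306-112938365, plus strand: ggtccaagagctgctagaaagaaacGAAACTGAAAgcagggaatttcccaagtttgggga
ISG15, chr1:1013359-1013418, plus strand: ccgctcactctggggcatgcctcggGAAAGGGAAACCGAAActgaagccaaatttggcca
IFIT1 and IFI27 each hold 2 copies and ISG15 holds overlapping copies, while MX1 is shown at 1 of its RefSeq starts. OAS1 lacks this form in the window but holds a shorter spacing, GAAANGAAA, which was searched after its sequence had been read.
OAS1, chr12:112906902-112906961, plus strand: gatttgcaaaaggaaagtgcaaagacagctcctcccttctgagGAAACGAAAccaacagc
Of the 13 higher genes 3 hold the shorter form (MX1, OAS1 and OAS3), against 188 of the 5716 genes above the filter (3.29%). Because the form was picked from OAS1, which is 1 of the 3, nothing is concluded from this count. Of the 20 lower genes 2 hold it (10%), EDN1 and PLAC8. A match describes the letters and was not measured as binding, and a gene without a match says only that these letters are not in the window.

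ISG15 is a ubiquitin-like protein that is attached to other proteins. ISG15 itself had an intensity of 2049 with ns and 4222 with p73 shRNA in confluent cells, and of 1946 and 2300 at 40%. Both control arrays agree closely and the p73 shRNA array of confluent cells is the highest, at a ratio of 1.04 against 0.24 at 40%. All 4 genes of the ISG15 system above the filter were at least 1.5-fold higher, namely ISG15, the ligase HERC5 (320 and 630, 0.95), the conjugating enzyme UBE2L6 (0.78) and the deconjugating protease USP18 (0.73). HERC5 and its antiviral neighbour HERC6 (0.72) lie side by side on chromosome 4.

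Upstream components of the pathway showed smaller ratios. Of 13 interferon receptor and signalling genes 1 was at least 1.5-fold higher, 1 was lower and 0 were past 2-fold, with a median of 0.16. Over all genes 1.89% were at least 1.5-fold higher and 2.29% lower. IRF9, the DNA-binding part of the STAT complex, read 632 and 987 in confluent cells (0.63) and 479 and 761 at 40% (0.66). IFNAR2, a subunit of the receptor, was lower at 615 and 395 (-0.62), whereas at 40% it was level at 295 and 301. The kinase JAK1 stood at -0.23 and TYK2 at 0.16. Of 9 genes of RNA sensing, 1 was at least 1.5-fold higher. That gene was RIGI, a sensor of viral RNA, with 277 and 471 (0.74). The related sensor IFIH1 read 292 and 429 (0.54) in confluent cells but 127 and 46.8 (-1.25) at 40%.

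Genes that present peptides to T cells had smaller positive ratios. Of 16 genes of MHC class I presentation, 13 had a positive ratio and 3 a negative one, with a median of 0.18 (49.8% of all genes were positive). The peptide transporter TAP2 was the only one past 1.5-fold, at 126 and 246 (0.90). All 9 chemokine genes above the filter had a positive ratio in confluent cells and none reached 1.5-fold. CCL7, which attracts monocytes, was the highest at 334 and 486 (0.53), and CCL2 read 8674 and 11754 (0.44). At 40% confluence both were negative, at -0.08 and -0.46. The NF-kB list of 19 genes had a median of 0.01 and 0 genes past 1.5-fold, where 95.8% of all genes lay within it. Quantile scaling and the curve left 9 of 9 chemokines positive.

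The 24 lower genes contained 0 members of the antiviral or ISG15 lists. These lists hold only 39 and 4 of the 6759 genes above the filter, so 0 among the lower genes says little. They included genes of adhesion, contraction, secreted signals and transport. CADM1, an immunoglobulin-like adhesion molecule between cells, had the lowest ratio of all. Its intensity was 447 with ns and 57.1 with p73 shRNA in confluent cells, and 189 and 43.0 at 40%, so both control arrays are above both p73 shRNA arrays. The log2 ratio was -2.74 in confluent cells (6.68-fold) and -1.88 at 40%. Its other probe sets, below the filter over the 4 arrays, read 270 and 17.0 (-3.30) and 99.4 and 30.9 (-1.39). Of 19 adhesion genes 1 other was at least 1.5-fold lower, the immunoglobulin-like L1CAM (3863 and 2256, -0.77).

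ACTG2 is the gamma actin of enteric smooth muscle. It read 3033 with ns and 503 with p73 shRNA in confluent cells, and 3685 and 660 at 40%. Both p73 shRNA arrays are far below both control arrays, and the ratios were -2.56 and -2.46. The actin-linked CNN1, a calponin, followed at 702 and 375 (-0.89, and -0.79 at 40%). Of 25 contractile genes only these 2 were past 1.5-fold, 7 had a positive and 18 a negative ratio, and the median was -0.10. The smooth muscle alpha actin ACTA2 read 554 and 542 (-0.03) and TAGLN stood at -0.18. The ACTG2 promoter is printed because it holds CArG boxes, the motif that serum response factor reads in smooth muscle genes. In capitals are its 2 matches within the 250 bases before the start, on GRCh38.p14.
ACTG2, chr2:73892758-73893007, plus strand: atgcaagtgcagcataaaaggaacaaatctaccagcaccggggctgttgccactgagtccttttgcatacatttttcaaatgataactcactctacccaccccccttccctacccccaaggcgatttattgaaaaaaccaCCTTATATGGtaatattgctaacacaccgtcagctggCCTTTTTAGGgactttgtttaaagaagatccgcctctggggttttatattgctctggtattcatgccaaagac
Of the 20 lower genes with a promoter, 2 held a CArG box in the window (ACTG2 and PLAC8), as did 1 of the 13 higher ones (ISG15), against 97 of the 5716 genes above the filter (1.7%). Of 122 genes at least 1.5-fold lower 4 held one (3.28%).

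Several lower genes encode secreted signals or their receptors. EDN1, the vasoconstrictor endothelin, read 126 with ns and 22.7 with p73 shRNA in confluent cells and 596 and 240 at 40%, with ratios of -2.01 and -1.27. The array of confluent p73 shRNA cells is the lowest of the 4. TGFB2, a transforming growth factor, read 215 and 92.7 in confluent cells (-1.12) and 466 and 154 at 40% (-1.53), and its other 3 probe sets, all below the filter, gave 0.16, -1.65 and 0.19 in confluent cells and -0.54, -0.57 and -0.78 at 40%. JAG1, a ligand of Notch, read 158 and 71.4 (-1.03), and 371 and 84.2 at 40% (-2.00). Of 7 Notch genes it was the only one past 1.5-fold, and NOTCH1 and the target HEY1 each stood at -0.54.

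IGFBP5, which binds insulin-like growth factors, read 1586 and 486 in confluent cells (-1.68), and 791 and 197 at 40% (-1.94). Its other probe sets, all below the filter, were also negative in confluent cells, from -1.35 to -0.08. TNFRSF9, a costimulatory receptor, read 293 and 83.9 (-1.67), against 118 and 78.1 at 40%. Its second probe set lay below the filter (34.1 and 30.0). In the growth factor list of 15 genes, FGF5 (0.61) was at least 1.5-fold higher (1.89% of all genes were) and 2 were lower (2.29% of all genes were). The lower ones were the receptor MET (1453 and 760, -0.93, and -1.27 at 40%) and CSF1, a macrophage growth factor (826 and 435, -0.91). CSF1 had a ratio of 0.31 at 40%.

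Of 6 genes in the potassium channel list 1 was past 2-fold lower, KCNK1, and 1 higher, KCTD12, with a median of 0.02. Over all genes 0.355% were past 2-fold lower and 0.311% higher. KCNK1, a potassium leak channel, read 421 with ns and 96.7 with p73 shRNA in confluent cells, and 150 and 30.0 at 40%, with ratios of -2.00 and -1.96. Its second probe set, below the filter, gave -0.49. PIEZO2, a channel opened by membrane stretch, read 425 and 185 (-1.15), and 141 and 59.0 at 40% (-1.11). SLC1A4, a carrier of neutral amino acids, read 270 and 110 (-1.21, and -0.74 at 40%), and its other probe sets, 1 of them above the filter (-1.50), ranged from -2.31 to -0.53. In both KCNK1 and PIEZO2 the ns shRNA array of confluent cells is the highest of the 4. That array was at least 2-fold from each of the other 3 for 8 of the 24 lower genes, which were AK4, CADM1, GAA, KCNK1, MEST, OLFML2A, PIEZO2 and TNFRSF9. The p73 shRNA array of confluent cells was so for 4, AMIGO2, EDN1, PLAC8 and WDR62.

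The remaining lower genes had various roles. AK4, a mitochondrial adenylate kinase of the hypoxia list, read 886 and 293 in confluent cells (-1.56) but only 56.7 and 39.1 at 40%, so both confluent arrays are high. A second AK4 probe set, below the filter over the 4 arrays, read 154 and 140 (-0.13). LCP1, which bundles actin, read 359 and 136 (-1.33), and 368 and 112 at 40% (-1.62). WDR62, a spindle pole protein, read 133 and 42.9 (-1.41) but 206 and 250 at 40% (0.27). OLFML2A, a matrix protein, stood at -1.20, the lysosomal glucosidase GAA at -1.13, the kinesin KIFC3 at -1.11, and the retinol dehydrogenase RDH11 at -1.03. TCIM read 393 and 159 (-1.25), and 463 and 110 at 40% (-1.96). PLAC8, the imprinted gene MEST, the deacetylase SIRT1, the protease ADAM12, the adhesion protein AMIGO2 and the extracellular chaperone CLU lay between -1.10 and the limit of 2-fold. The genes just outside 2-fold were HAS2, a hyaluronan synthase (-0.97), SOAT1, YARS2 and TNFRSF21 (each -0.96).

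Higher genes outside the antiviral group were less uniform. SPN, the sialoglycoprotein CD43 of leukocytes, had the highest ratio. It read 21 with ns and 179 with p73 shRNA in confluent cells, and 205 and 186 at 40%, so 1 array, ns shRNA in confluent cells, is apart from the other 3. The ratio of 2.55 therefore rests on that array, and the other 3 SPN probe sets were below the filter, with at most 48.2 on the confluent arrays. HABP4, an RNA-binding protein, showed the same shape, at 40.5 and 163 in confluent cells (1.75) against 162 and 165 at 40%, and its second probe set lay below the filter (16.6 and 2.39). SURF2 read 37.3 and 122 (1.45), against 297 and 386 at 40%. COPS7B, a subunit of the COP9 signalosome, completes the 4 higher genes whose ns shRNA array of confluent cells was at least 2-fold from each of the other 3 arrays. For 8 higher genes the p73 shRNA array of confluent cells was, and 6 of these are antiviral genes.

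MT1HL1, a metallothionein gene copy, read 2115 and 7080 in confluent cells and 3905 and 11814 at 40%, with ratios of 1.74 and 1.59. Its probe set is marked in the array's naming as one that may also bind related sequences, and 10 of the 11 genes in the list of metallothioneins and zinc transport had a positive ratio (median 0.23), the exception being the zinc exporter SLC30A1 (-0.10). SOX12, a transcription factor, read 72.0 and 208 (1.39), and 62.5 and 175 at 40% (1.33). Both p73 shRNA arrays are above both control arrays for SOX12. PARP8 read 99.7 and 251 (1.24) but 103 and 85.6 at 40%. METRN, a secreted protein (1.25), RAB38, a small GTPase (1.24), and KCTD12, an accessory protein of GABA receptors (1.08), also passed 2-fold, as did the gene copies ANXA2P3 (1.18) and PMS2P3 (1.11). The other probe sets of PMS2P3 above the filter gave 0.04 and -0.60, and 1 below it 0.08.

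The pair of arrays at 40% confluence shares no array with the confluent pair and gives a second reading of the hairpin contrast in another state of growth. Of the 21 genes higher in confluent cells, 19 had the same sign at 40% and 8 were at least 1.5-fold higher there (4.81% of all genes were), with SPN and PARP8 on the other side of 0. Past 2-fold at both stages were 4, MT1HL1, SOX12, OAS1 and TRIM22. Of the 24 lower genes, 21 had the same sign and 14 were at least 1.5-fold lower at 40% (6.63% of all genes were). Past 2-fold at both stages were 11, ACTG2, CADM1, EDN1, KCNK1, IGFBP5, LCP1, TCIM, PIEZO2, TGFB2, JAG1 and CLU. The median ratio of the higher genes was 1.35 in confluent cells and 0.43 at 40%, and of the lower ones -1.17 and -0.85. The genes were picked by their ratio in confluent cells, which by itself makes the ratios at 40% smaller. These medians therefore cannot tell at which stage the hairpin contrast is larger.

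**Figure D4:**
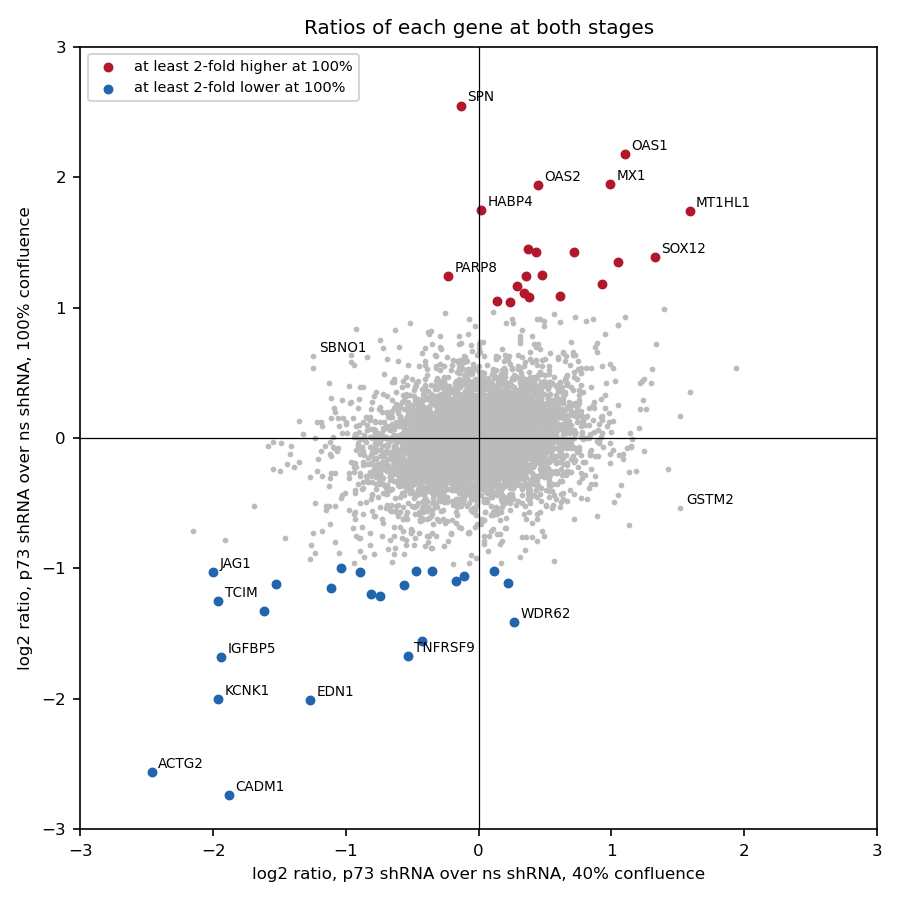
Log2 ratio of p73 over ns shRNA at 40% (horizontal axis) against the ratio in confluent cells (vertical axis) for the genes above the filter, with the genes past 2-fold in confluent cells marked by direction. ACTG2 lies near the diagonal at -2.46 and -2.56, while OAS2 at 0.45 and 1.94 and SPN at -0.13 and 2.55 lie above it.

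For the antiviral genes the confluent ratio was the larger one in 32 of 39, and the list's median was 0.62 in confluent cells and 0.38 at 40%. At 40% confluence 8 of the 39 were at least 1.5-fold higher and 2 at least 1.5-fold lower. Those with the larger ratio at 40% included MX2 and IFITM1 (0.87 in confluent cells and 1.05 at 40%). The difference between stages was not tested. Among genes past 1.5-fold at both stages, 83 of 96 kept their direction and 13 did not. The genes with the largest differences in the negative direction were GSTM2, at -2.05, and SIK2, at -1.80.

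**Figure D5:**
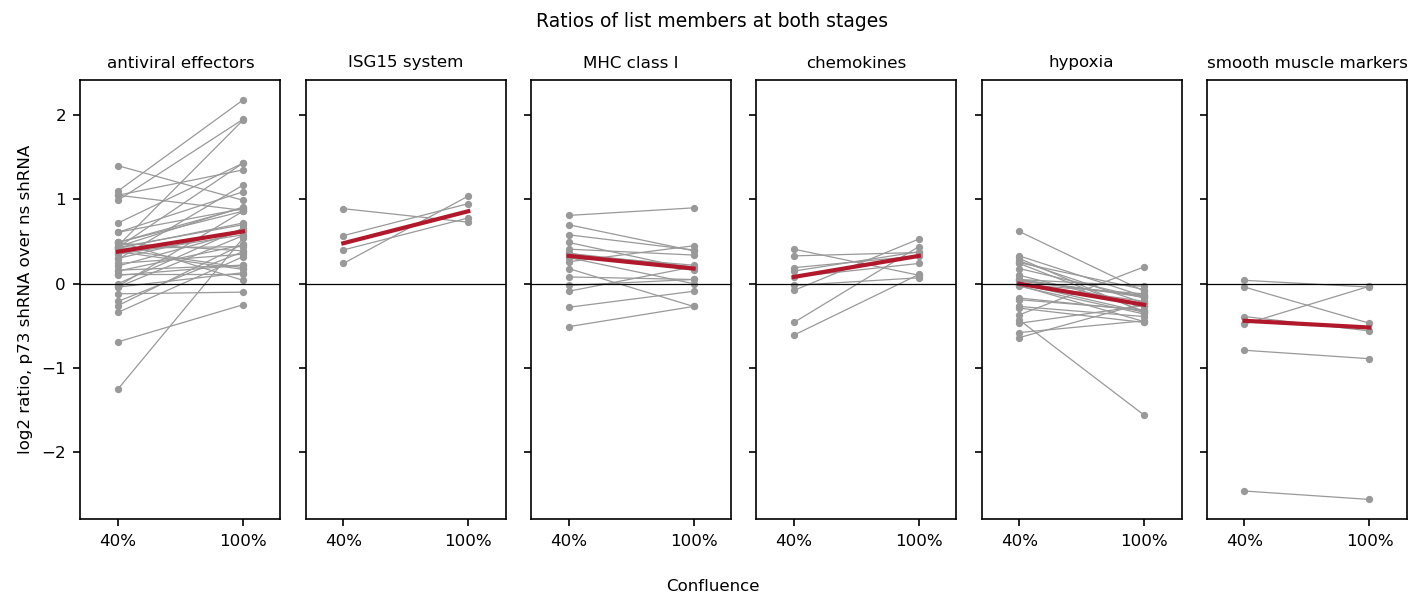
Log2 ratio of p73 over ns shRNA (vertical axis) at 40% and at 100% confluence (horizontal axis) for the members of 6 lists, with a grey line per gene and the median of the list in red. The antiviral median goes from 0.38 to 0.62 and the hypoxia median from -0.00 to -0.25, while ACTG2 is the lowest line among the smooth muscle markers.

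Targets of the p53 family showed no common direction. Of 28 such genes above the filter 14 had a positive and 14 a negative ratio, with a median of 0.01. KCNK1 was at least 1.5-fold lower and TRIM22 higher. CDKN1A, an inhibitor of cyclin-dependent kinases and a classic target of the family, read 681 with ns and 813 with p73 shRNA in confluent cells (0.25), and 197 and 191 at 40% (-0.04). CDKN1B read 2201 and 1967 (-0.16). The p53-family half-site was found in 1 of 13 higher and 1 of 20 lower genes with a promoter, and in 430 of 5716 (7.52%). At 1.5-fold it was found in 6 of 97 higher genes (6.19%) and 14 of 122 lower ones (11.5%). These shares were not tested.

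Cell cycle genes showed small ratios. Of 33 genes of the start of S phase and 42 of mitosis, 0 were past 1.5-fold, and the mitotic list had a median of 0.01. Over all genes 1.89% were at least 1.5-fold higher and 2.29% lower. The 17 cyclins, CDK inhibitors and pocket proteins had 4 positive and 13 negative ratios (median -0.13). The hypoxia list, which leaves out glycolysis enzymes, was mostly negative. Of its 26 genes 25 were negative (50.2% of all genes were), 1 was positive (ERO1A, 0.20) and the median was -0.25. At 40% 12 were positive and the median was -0.00. AK4 was the only one past 1.5-fold. The collagen-modifying enzyme PLOD2 read 5233 and 3803 (-0.46), NDRG1 4802 and 3511 (-0.45) and the growth factor of vessels VEGFA 3357 and 2696 (-0.32). Under quantile scaling and under the curve 25 of 26 hypoxia genes were again negative. The 18 glycolysis genes, listed apart, had 11 positive and 7 negative ratios (median 0.04). Oxygen levels are not given in the labels.

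Most matrix genes were within 1.5-fold, as were 95.8% of all genes. Of 30 collagens and collagen-modifying genes 11 were positive and 19 negative (median -0.15; 50.2% of all genes were negative), with FKBP10 at 0.91 and COL18A1 (600 and 345) at -0.78 past 1.5-fold. Among 34 matrix glycoproteins 22 were negative (median -0.17), and past 1.5-fold 1 was higher and 3 lower. The higher one was LAMA4, a laminin chain of basement membranes (589 and 979, 0.72), and the lower ones were HAS2, TNC (5184 and 2924, -0.82) and LUM (5199 and 3020, -0.78). Among 25 matrix proteases and inhibitors the disintegrin proteases ADAM12, ADAM19 (443 and 232, -0.90) and ADAMTS1 (381 and 234, -0.68) were lower, and TFPI2, a protease inhibitor, was higher (1829 and 2898, 0.66). GREM1, a secreted antagonist of bone morphogenetic proteins, was lower at 3847 and 2250 (-0.77). PTGS2, which makes prostaglandin precursors, read 1448 and 935 (-0.62).

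In other lists single genes were past 1.5-fold. Over all genes 1.89% were at least 1.5-fold higher and 2.29% lower, and 10.1% of the dimmest group were past it in either direction. No list count here was tested against these shares. The translation enzyme EPRS1 read 1667 and 3077 (0.88), a value that was 0.36 as the mean of its probe sets. BCL2L1, a survival protein, read 135 and 249 (0.83), or 0.32 as such a mean. In the lysosome list of 31 genes, 2 were higher (CTSS, 0.74, and CTSO, 0.64) and 4 lower (GAA, CTSF, GABARAPL1 and MITF). The complement genes C1R (1229 and 2026, 0.72) and COLEC12 (1214 and 1946, 0.68) were higher, and SERPING1 (337 and 214, -0.62) and CLU were lower. The 35 genes of oxidative phosphorylation had a median of 0.05 and 0 past 1.5-fold. The 24 ribosomal protein genes had a median of 0.12 with 22 positive, which turned to -0.02 with 9 positive under quantile scaling, so no direction is given for them.

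Signalling lists were centred near 0 with a few members apart, where 1.89% of all genes were at least 1.5-fold higher and 2.29% lower. Of 21 genes of TGF-beta and activin signalling, 1 was at least 1.5-fold higher, the co-receptor TGFBR3 (0.59), and 3 were lower, TGFB2, the activin receptor ACVR2A (-0.69) and LTBP1 (1191 and 788, -0.59), which anchors latent TGF-beta in the matrix. The list's median was -0.01, and under the curve 2 were lower. Of 22 YAP and TEAD genes only TGFB2 was past 1.5-fold, and the classic target CCN2 read 765 and 512 (-0.57) in confluent cells, with 0.05 at 40%. Of 18 Wnt genes the co-receptor LRP6 was past it, at 311 and 474 (0.59), with -0.40 at 40%. All 11 integrin genes above the filter were within 1.5-fold (median -0.16), from ITGA2 at -0.31 to ITGBL1 at 0.55.

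Receptors of vasoactive and lipid ligands were split. The shares over all genes at 1.5-fold were 1.89% higher and 2.29% lower. Besides EDN1, the enzyme ECE1, which cuts its precursor, was lower (566 and 371, -0.59), as was the oxytocin receptor OXTR (887 and 586, -0.59, and -0.55 at 40%). Both lie at the 1.5-fold limit, and the 3 lower genes of this list became 2 under quantile scaling and 1 under the curve. LPAR3, a receptor of lysophosphatidic acid, was higher at 153 and 301 (0.93, and 1.10 at 40%). Among 15 interleukin genes IL17RA was higher (217 and 370, 0.74) and IL1RAP, a subunit of the IL-1 receptor, lower (276 and 145, -0.87, and -0.89 at 40%). The median of the interleukin list was -0.14.

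Metabolic and stress lists had few members past 1.5-fold, where 1.89% of all genes were higher and 2.29% lower. Of 22 genes of cholesterol and fatty acid synthesis 18 had a positive ratio (median 0.14), as had 49.8% of all genes. The mevalonate kinase MVK (280 and 473, 0.73) passed 1.5-fold. Among 18 glycolysis genes ENO2, the neuronal enolase, was lower (1183 and 760, -0.63). None of the 17 heat shock genes, the 24 genes of the oxidative stress response or the 8 histone genes was past it, with medians of 0.09, 0.06 and -0.06. Of 30 genes of amino acid and unfolded protein stress only SLC1A4 was past it.

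Markers of cell types were checked on these arrays. Of 16 fibroblast markers 15 were above the filter, with a median ratio of 0.02 (negative under both other scalings), and POSTN lay below it. Intensities summed over all 16, POSTN included, were 102288 with ns and 107196 with p73 shRNA in confluent cells. All 6 smooth muscle markers above the filter, of 11 on the array, were negative in confluent cells (5 of 6 under quantile scaling), with a median of -0.52. Summed over all 11 on the array, those below the filter included, the level was 6344 with ns and 3124 with p73 shRNA, against 7458 and 3844 at 40%. Most of that difference comes from ACTG2 alone (3033 and 503, and 3685 and 660 at 40%). In confluent cells CNN1 (-0.89), MCAM (-0.56) and CSPG4 (-0.47) were also negative, and SMTN (-0.04) and ACTA2 (-0.03) were nearly level. The sum is thus no level of a cell type, and the part of a change in cell make-up in the results was not tested. In bulk samples fewer cells of a type and less RNA per cell cannot be told apart. Of the markers of other types 4 of 18 keratinocyte genes, 1 of 10 endothelial genes, 1 of 9 blood genes and 1 of 7 melanocyte genes were above the filter. The sums over all markers on the array, dim ones included, were 7708 with ns and 6627 with p73 shRNA in confluent cells for keratinocytes, 393 and 377 for endothelium, 1013 and 984 for blood, and 542 and 376 for melanocytes. The single genes above the filter were FLT1 for endothelium (191 and 223, 0.22), LAPTM5 for blood (815 and 813, -0.00) and MITF for melanocytes (411 and 256, -0.66).

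Genes past 1.5-fold also lay next to each other in some places. Of 283 such genes 275 could be placed in the RefSeq order of protein-coding genes, and 14 pairs had at most 2 genes between them. The number of such pairs in other sets of genes was not counted, so the 14 are a list of places and no sign of clustering. The direction was the same in 13 pairs. They included the OAS, MX, IFIT, IFITM and HERC antiviral families and, among lower genes, SLC38A1, SLC38A4 and AMIGO2 on chromosome 12, where the SLC38 genes carry amino acids. The opposite pair was UBE2L6 and SERPING1 on chromosome 11.

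The number of genes past 2-fold depended on settings for dim genes. With a pseudocount at the 40th percentile of the values 16 were higher and 13 lower, and with a filter at the 70th percentile of probe sets 6 and 3. Without a filter the counts were 455 and 403.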

How the data were processed

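Total RNA was extracted with trizol and hybridised to Affymetrix expression arrays, per the labels. The authors deposited 1 intensity per probe set and array, and the software behind them was not stated in any source used. The values are linear and each array has the same trimmed mean, so a change shared by most genes cannot be seen. The 4 arrays were used as deposited, and groups were taken from the sample titles.

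Of the non-control probe sets 19064 had 1 gene symbol (19052 matched to current symbols by Entrez ID), 1043 had several and 2108 were not listed, and the last 2 kinds were not named. Ratios used log2(intensity + 11.5), the 20th percentile. Genes were kept when the mean of the brightest probe set was at least 6.94 on the log2 scale, the median over probe sets, and 3737 of the 6759 kept genes have 1 probe set.

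Genes and the 54 lists, 6 of them cell type markers, were chosen with earlier results of these data known. Named were preset genes, the 25 highest and 25 lowest ratios, genes past 2-fold at both stages, the 8 highest and 8 lowest differences between stages, list members past 1.5-fold or the largest 3, and markers above the filter. Other list members named were chosen after their values were seen. Promoters are RefSeq sequences. Alternatives were other scalings, pseudocounts, filters and rules for probe sets. The ratios, but not the counts, were checked on simulated data with planted folds. The noise there was the same at every brightness, unlike on these arrays. Python 3.11.15, pandas 2.3.3 and numpy 2.4.6 were used, with statsmodels 0.14.6 for the curve and matplotlib 3.10.9 for figures.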

Additional observations from a re-analysis of the deposited data

Results flagged for a closer look

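In 13 of the 6759 genes above the filter the hairpin ratio was past 1.5-fold in 1 direction in confluent cells and in the other direction at 40% confluence. With 1 array per group each stage gives a single ratio, and no replicate shows whether the direction holds. The difference between stages was not tested. The ratio in confluent cells minus the ratio at 40%, on the log2 scale, was negative for SIK2 (-1.80, from -0.67 and 1.13), RPS6KB2 (-1.49, from -0.60 and 0.89) and SERPING1 (-1.34, from -0.62 and 0.72). It was positive for SBNO1 (1.88, from 0.63 and -1.25), SNX11 (1.76, from 0.84 and -0.92) and XRCC2 (1.60, from 0.64 and -0.96). CTC-338M12.4 stood at 1.48, MIER2 and ABITRAM each at 1.45, CRAT at 1.41, DNAAF2 at 1.30, AP4S1 at 1.29 and GRWD1 at 1.21. SERPING1 is the inhibitor of complement protease C1 and SIK2 a salt-inducible kinase.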

How the results depend on the processing

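Each result was recomputed under 8 alternatives. Quantile scaling, the curve, a pseudocount at the 5th percentile and the choice of probe sets from the confluent arrays kept the counts over all genes past 2-fold or 1.5-fold, and the antiviral count, within 1.5 times. The genes counted were not all the same. With probe sets and filter from the confluent arrays, 18 of the 21 higher and 20 of the 24 lower genes stayed past 2-fold above the filter. SPN, HABP4, SURF2, EDN1, JAG1, KIFC3 and WDR62 were lost. EDN1, SURF2, KIFC3 and WDR62 have 1 probe set each, so their ratios were unchanged and they fell under that filter. In smaller lists such scaling turned single calls: 3 lower vasoactive genes became 2 (quantile) or 1 (curve), 1 lower ERK feedback gene became 0 (curve), 1 higher p53-family target became 2 (quantile), and 0 higher BMP genes became 1. A pseudocount at the 40th percentile gave 13 genes at least 2-fold lower, 81 at least 1.5-fold higher, 1 higher and 7 lower past 2-fold at both stages, and an antiviral median of 0.54. No filter gave 455 and 403 past 2-fold, 1052 and 1022 past 1.5-fold, and 69 and 60 past 2-fold at both stages. A filter at the 70th percentile gave 6 and 3, 38 and 51, and 1 and 2, with 10 antiviral genes past 1.5-fold. Averaging the probe sets of a gene left 5 lower genes past 2-fold at both stages and gave an antiviral median of 0.68. It kept 18 of the 21 higher genes and 13 of the 24 lower ones past 2-fold above the filter. Those lost included SPN and HABP4 among the higher and CADM1, KCNK1, IGFBP5 and AK4 among the lower. A gene was also lost when its averaged brightness fell under the filter. CADM1 was lost in that way, with all its probe sets past 2-fold lower (-2.74, -3.30 and -1.39). STK11, at 0.96, turned to -0.00 with the mean of its probe sets. Of 213 named genes above the filter, 39 moved by more than the spread between probe sets in some alternative, as did 31 of 54 list medians by the like measure for lists. The endothelial and melanocyte marker medians could not be had with the stricter filter, nor the endothelial one with the mean of probe sets. No paired analysis was possible because each group has 1 array, and for the same reason no replicate could be left out. Signal over background sets the limit of detection, so genes under the filter may be expressed or differ.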
